A study of Crocodylus porosus with 60 samples.

Results

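The miRNAs of the heart of hatchling saltwater crocodiles (Crocodylus porosus) were set against those of 9 other tissues: tongue, stomach, small intestine, cloaca, testis, brain, spleen, jaw skin and liver. Heart had 2 small RNA libraries of 15 in all, and these carry 8 of the 60 deposited samples, 4 under each library name. The table has a single value column per library name, so the 4 samples of a name could not be compared with each other. One heart column is headed as a runt and the other as a normal hatchling. Per the labels, runts measured 386.2 ± 23.6 mm (SD) at 359 days and normal hatchlings 740.2 ± 73.5 mm at 373 days, they were kept alike, and no treatment was given. Size class, age and animal therefore go together with the library, and the 2 heart libraries are from different animals. Testis had 4 libraries, from 2 columns of runts and 2 of normal hatchlings, brain had 1 of each, and the other 7 tissues had 1 library each with no size class in the heading. The cloaca column is headed cloacal gland. The labels name the source as hatchling heart cells, with no chamber. A library may thus hold RNA of muscle, vessel, connective tissue and blood cells, in shares that are not given. Fewer cells of a type cannot be told apart from less RNA per cell.

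Vertebrate heart muscle is known for a small group of miRNAs. The miR-1 and miR-133 genes are transcribed together in heart and skeletal muscle, where they act on muscle genes and their regulators. In mammals miR-208a and miR-499 lie within introns of myosin heavy chain genes and are made in cardiac or slow muscle, whereas miR-206 belongs to skeletal muscle. Other cell types of the organ have miRNAs of their own, such as miR-126 of endothelium, which lies in an intron of EGFL7, and miR-145, miR-199 and miR-214 of smooth muscle and connective tissue. The miR-200 family with miR-429, miR-205 and miR-203 marks epithelia.

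Values are RPM, read numbers scaled by the authors to a total whose reads are not specified, and each row of the table is 1 listed mature miRNA. After 5 rows with values identical to another row were dropped, 649 rows were left, 141 with a family name and 508 with an N and a number, the table's way of naming miRNAs outside known families. The spacing of low values gave an estimate of that total. It was 3140000 reads for the heart library of the runt and 870000 for that of the normal hatchling, within 540000 to 4760000 over all 15 libraries. A value of 0 allows up to 0.955 RPM in the runt heart and 3.45 RPM in the normal heart, for counting error only. Across the 316 rows tested, log2 levels of the 2 heart libraries correlated at r = 0.944. The runt heart correlated with stomach at 0.924 and the normal heart with stomach at 0.865, with testis libraries as low as 0.696 and 0.650. Such values run across rows of a table and have no replicates behind them.

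A small number of rows held much of the listed RPM in heart, as in the other tissues, but the runt heart was the more even of the hearts. The 5 leading rows held 44.7% of the listed RPM of the runt heart and 62.7% in the normal heart, against 43.3% to 73.6% in the other tissues. The first 10 rows held 60.35% in the runt heart, under every other tissue (64.89% to 85.38%), and 81% in the normal heart. The first row alone held 12.96% in the runt heart, again under every other tissue (16.73% at the lowest), and 23.22% in the normal heart. The first by mean level was miR-30a-5p, at 51269 RPM in the runt heart and 152843 RPM in the normal heart. It was followed by miR-N444 (45526 and 127367 RPM), miR-26a-5p (69653 and 26818 RPM), miR-148-5p (46510 and 45476 RPM) and the muscle miRNA miR-133-5p (27204 and 37916 RPM). The further 10 of the first 15 were miR-181a-5p, miR-425-5p, miR-125b-5p, miR-133c-5p, miR-30c-5p, miR-92-1-5p, let-7j-5p, miR-499-3p, miR-N1 and miR-145. Most of these are abundant in other tissues too. Only miR-133-5p, miR-133c-5p and miR-499-3p of the 15 differed from the mean of the 9 other tissues past the threshold.

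The comparison asked which miRNAs set the heart apart from the average of 9 tissues, each tissue counting once. A test was made with limma, on log2(scaled RPM + 1), where 2 or more libraries reached 10 RPM. At an adjusted p under 0.05, heart was higher in 19 of 316 rows (6.01%) and lower in 11 (3.48%), so that 9.49% differed. Of the 19 higher rows 15 passed the filter on the other libraries alone. The other 4 (miR-N46, miR-N69, miR-N92 and miR-N99) reached 10 RPM only in the heart libraries. The filter thus fixed their direction, and their values are given as a description. In all, 11 tested rows needed a heart library to pass the filter, 4 of them called higher and 0 lower. Family names were carried by 126 tested rows, 8 of them higher in heart and 9 lower. N-numbers were carried by 190, 11 of them higher and 2 lower. The median log2 fold over all tested rows was -0.33, and it was -0.24 without scaling and -0.23 with a median of ratios scaling. Each list below is read beside -0.33, and its counts beside 6.01% higher and 3.48% lower. The spread in this test comes only from heart, testis and brain, the tissues with more than 1 library. It is the spread between libraries of a tissue, not that between tissues, and nothing says that libraries of 1 size class came from separate animals.

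**Figure D1:**
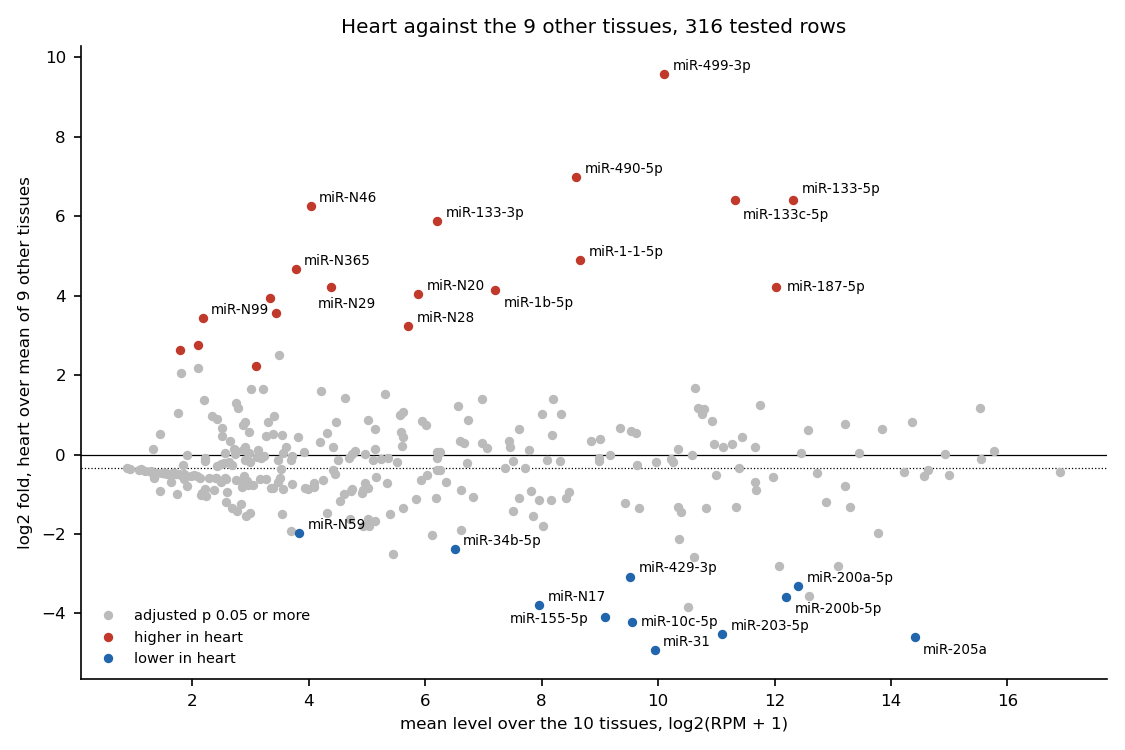
Log2 fold of heart over the mean of the 9 other tissues (vertical axis) against the mean level over the 10 tissues, log2(RPM + 1) (horizontal axis), for 316 tested rows. Each point is 1 row, red points are the 19 higher and blue points the 11 lower in heart, and the dotted line is the median of all rows at -0.33. miR-499-3p lies highest at 9.58 and miR-31 lowest at -4.93.

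The striated muscle list had the highest median fold of all lists. It matched 8 rows, of which miR-133c-5p repeats the values of miR-133-5p at a fixed ratio and is left out of the list's counts and sums here. Of the other 7 rows 6 were tested, 5 were higher in heart and 0 lower, with a median log2 fold of 5.39 (5.89 with miR-133c-5p). Together the 7 rows summed to 48516 RPM in the runt heart and 45501 RPM in the normal heart, which is 9.03% and 6.91% of the listed RPM. Their sum in the other tissues ran from 54.4 RPM in liver through a median of 541.9 RPM to 10616 RPM in tongue, an organ of skeletal muscle. Of the markers of the label, miR-1, miR-133 and miR-499 were present in both hearts, whereas miR-208a was listed at 0 in the normal heart. The skeletal muscle row miR-206 was at 1.06 RPM in the runt heart and 0 in the normal heart.

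The row with the largest fold was miR-499-3p, at 15279 RPM in the runt heart and 6319 RPM in the normal heart. The other 9 tissues held 1.49 RPM at the lowest (liver), 17.1 RPM at the median and 72.0 RPM at the highest (cloaca). Both heart libraries lay above every other library, the highest of which was a testis library of a runt with 79.8 RPM. The log2 fold was 9.58 (SE 1.16, adjusted p = 3.08e-04 by limma), and the mean of the heart libraries was 150-fold above the highest other tissue.

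miR-133-5p had 27204 RPM in the runt heart and 37916 RPM in the normal heart, against 27.2 RPM (jaw skin), 347.8 RPM (median) and 9532 RPM (tongue). The log2 fold was 6.42 (SE 0.89, adjusted p = 3.35e-04). Tongue was followed by stomach at 5345 RPM and small intestine at 2346 RPM, and heart lay 3.42-fold above tongue. miR-133c-5p was at 0.49988 to 0.50011 of the level of miR-133-5p in all 15 libraries. The pair is therefore a single measurement, although both rows are counted in the numbers of called and stable rows outside this list. miR-133-3p, the other arm, had 457 and 501 RPM in heart against at most 137.3 RPM (tongue), with a log2 fold of 5.89 (SE 0.78, adjusted p = 3.08e-04). The arm names are those of the table. In other vertebrates the mature strands of miR-1 and miR-133 known for their abundance are the 3p arms. No arm name given here, that of miR-499-3p included, was checked against sequences, so which arm prevails is not read from any row.

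The rows of miR-1 differed more between the hearts. miR-1-1-5p had 4626 RPM in the runt heart but 609.5 RPM in the normal heart, against 2.99 RPM (liver), 68.4 RPM (median) and 626.1 RPM (tongue). The normal heart thus lay just under tongue, and the groups overlapped. The log2 fold was 4.89 (SE 1.00, adjusted p = 6.27e-03), but 3.46 without the runt heart, where the call ended (adjusted p = 0.164). It also ended when rows low in all but 1 library were tested as well (adjusted p = 0.0569) and with no filter on low values (0.0534). miR-1b-5p, a second miR-1 row, had 903.3 RPM in the runt heart and 155.5 RPM in the normal heart, against a median of 7.72 RPM. Small intestine with 465.1 RPM and stomach with 400.7 RPM lay above the normal heart, while tongue had 14.8 RPM. Its log2 fold was 4.14 (SE 0.76, adjusted p = 2.97e-03), and 2.90 without the runt heart (adjusted p = 0.0861).

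miR-208a, the cardiac myosin miRNA, was listed at 45.2 RPM in the runt heart (exact Poisson 95% interval 38.1 to 53.3 RPM) and at 0 in the normal heart. It was at 0 in 12 of the 13 other libraries and at 0.950 RPM in cloaca. The listed value in the runt heart was 13.1 times the 3.45 RPM that a value of 0 allows in the normal heart. Counting error in the runt heart is not included in that ratio. With only 1 library at 10 RPM or more, the row was not tested. miR-206 had 248.1 RPM in tongue, 23.7 RPM in cloaca and 43.1 RPM in testis, where 1 of 4 libraries held 157.8 RPM and the mean of the other 3 was 4.82 RPM. Its log2 fold in heart was -1.73 (95% interval -3.99 to 0.53).

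**Figure D2:**
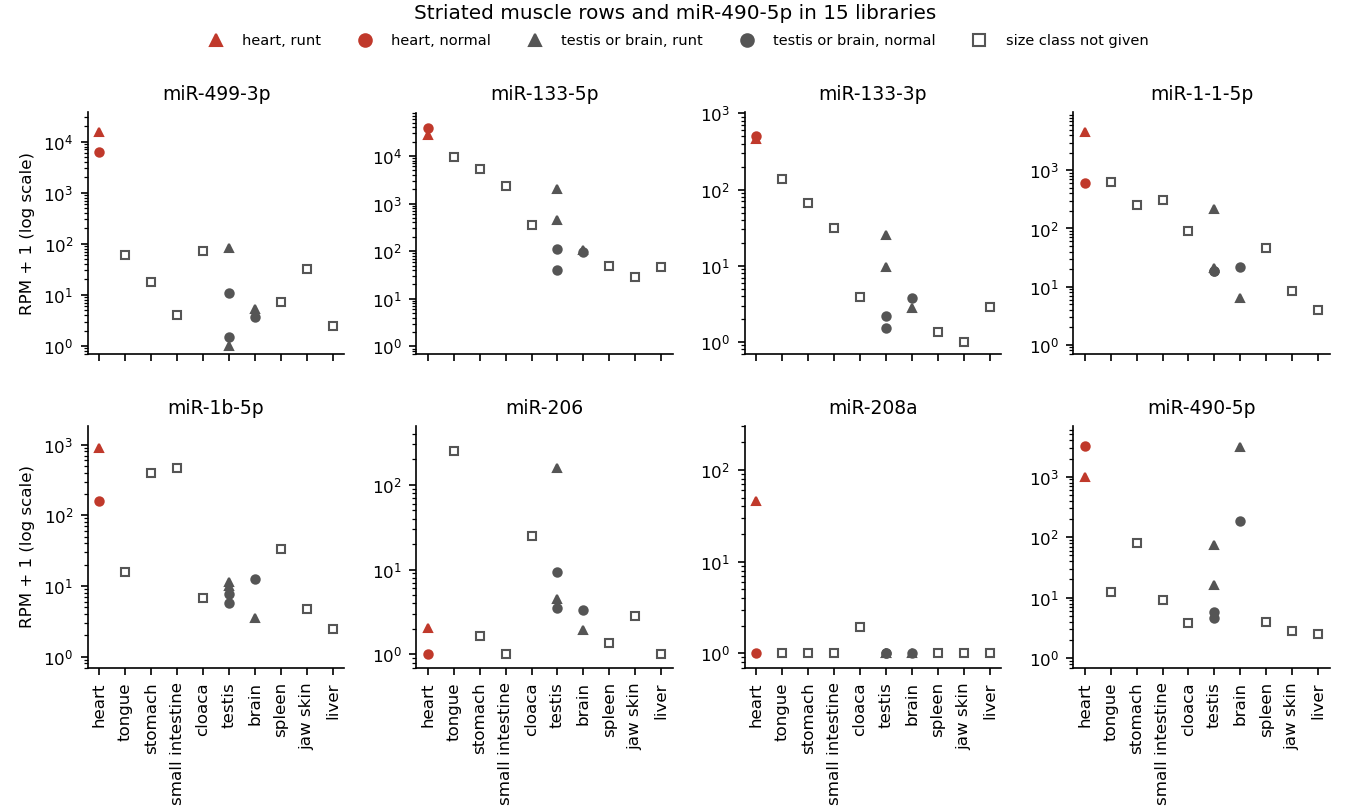
Levels of the 7 striated muscle rows with distinct values and of miR-490-5p in 15 libraries, as RPM + 1 on log axes, with heart at the left in red and the 9 other tissues in grey. Triangles are runts, circles normal hatchlings and open squares libraries with no size class in the heading. For miR-499-3p the heart points at 15279 and 6319 RPM stand apart from all others, whereas for miR-1-1-5p and miR-1b-5p the point of the normal heart lies among the highest other tissues.

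Among 3 matched rows of a list of further miRNAs abundant in vertebrate hearts, 1 was higher and 0 lower. Over all tested rows the shares were 6.01% and 3.48%. The higher row was miR-490-5p, which in mammals lies in an intron of CHRM2, the gene of the M2 muscarinic receptor that slows the heartbeat. It had 991.2 RPM in the runt heart and 3192 RPM in the normal heart, against a median of 8.12 RPM over the other tissues. Brain came closest, with 3091 RPM in the library of the runt and 186.7 RPM in that of the normal hatchling, so heart and brain overlapped, and stomach followed with 78.3 RPM. The log2 fold was 6.99 (SE 0.93, adjusted p = 3.08e-04). miR-26a-5p, a broadly expressed miRNA, had a log2 fold of -0.11 (95% interval -1.23 to 1.01). miR-22-3p, known from striated muscle of mice, had 5356 and 2662 RPM in heart against 1867 to 4002 RPM in the other tissues (log2 fold 0.46, 95% interval -1.01 to 1.93).

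A family-named row outside all lists, miR-187-5p, was also higher in heart. It had 9792 RPM in the runt heart and 6519 RPM in the normal heart, against 44.5 RPM (jaw skin), 175.6 RPM (median) and 28102 RPM (stomach). Only stomach lay above both heart libraries, and brain and testis followed at 2282 and 1943 RPM. The log2 fold was 4.22 (SE 0.64, adjusted p = 6.63e-04).

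The 11 N-numbered rows higher in heart include the 4 that passed the filter only through heart, whose low levels elsewhere were fixed by the filter. miR-N46 was at 55.1 RPM in the runt heart and 237.9 RPM in the normal heart. It was at 0 in 5 of the other tissues and reached 4.87 RPM in brain, so heart lay 30.1-fold above the highest other tissue. As it passed the filter only through heart, no test is given for it. miR-N20 had similar levels in both hearts, 322.8 and 374.7 RPM, against 5.56 to 72.9 RPM elsewhere (log2 fold 4.05, SE 0.52). miR-N29 had 122.5 and 117.2 RPM against at most 32.2 RPM (brain), and miR-N365 had 82.8 and 86.2 RPM against at most 11.8 RPM (testis). miR-N46, miR-N20, miR-N29 and miR-N365 lay in both hearts above every other library.

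The further N-numbered rows that passed the filter on the other libraries ranged in log2 fold from 2.23 to 3.95. Of these, miR-N47 had 41.7 and 68.96 RPM in the runt and normal heart and miR-N255 34.4 and 86.96 RPM. The rows that passed only through heart were miR-N99 at 18.8 and 26.4 RPM, miR-N69 at 10.5 and 23.0 RPM and miR-N92 at 12.1 and 12.6 RPM, and no test is given for them. miR-N28 had 96.1 RPM in the runt heart and 389.6 RPM in the normal heart, against 86.7 RPM in liver, and its call ended without the normal heart (log2 fold 2.17 instead of 3.24, adjusted p = 0.262). miR-N66 had 17.5 RPM in the runt heart and 23.0 RPM in the normal heart, and the brain library of the runt, at 20.4 RPM, lay between them. Its call ended without the normal heart (adjusted p = 0.262), without the runt heart (0.0566), with a pseudocount of 10 (0.0865) and with testis and brain as the only other tissues (0.449). The standing of N-numbered rows as miRNAs was not examined.

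Both heart libraries lay above all 13 others in 17 of the 316 tested rows (5.38%) and below all of them in 1 row (0.316%). Where any other library was at 0, both hearts could not lie below all others, so these counts cannot be set against each other. The 17 include the 4 rows that passed the filter only through heart. Of the 19 rows called higher 14 were among the 17, and miR-1b-5p, miR-490-5p, miR-1-1-5p, miR-N66 and miR-187-5p were not. The 3 rows above all others that did not pass were miR-30e-5p, miR-30b-5p and miR-N277. Among the 19 higher rows the highest other tissue was tongue in 6 and brain in 4, and 5 rows (miR-499-3p, miR-N46, miR-N365, miR-N255 and miR-N99) were at least 5-fold above it. Of these, miR-N46 and miR-N99 passed the filter only through heart.

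The miR-30 family, which in rodents is abundant in heart muscle and acts on connective tissue growth factor, had the second highest median of the lists, with a log2 fold of 1.29 over 4 rows, but 0 of them passed. miR-30e-5p had 4351 and 3982 RPM in the runt and normal heart against at most 2042 RPM in small intestine (log2 fold 1.69, 95% interval 0.41 to 2.97, adjusted p = 0.103). miR-30b-5p had 963.0 and 432.7 RPM against at most 369.6 RPM in tongue (log2 fold 1.41, adjusted p = 0.134). miR-30c-5p had 18338 and 11521 RPM against at most 14664 RPM. miR-30a-5p was at 51269 RPM in the runt heart, under tongue (87006 RPM) and brain (55926 RPM), and at 152843 RPM in the normal heart. Its log2 fold was 1.17 (adjusted p = 0.184), and it passed only without the runt heart (1.99, adjusted p = 0.0377). The family took 13.9% of the listed RPM in the runt heart and 25.6% in the normal heart, against 4.95% in spleen to 15.6% in tongue.

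miRNAs of epithelia were lower in heart as a list. All 5 rows of the epithelium and skin list were lower in heart, with a median log2 fold of -3.58. The list summed to 1060 RPM in the runt heart and 123.0 RPM in the normal heart, against 234.0 RPM (lowest), 18307 RPM (median) and 149800 RPM (jaw skin). miR-205a, a miRNA of stratified epithelium, had 21.3 RPM in the runt heart and 6.90 RPM in the normal heart. Jaw skin (116144 RPM), cloaca (76174 RPM) and tongue (24437 RPM) were far above, but the median of the 9 tissues was 41.6 RPM, and spleen at 4.84 RPM lay below both hearts. Its log2 fold was -4.60 (SE 0.57, adjusted p = 3.08e-04). miR-203-5p, which acts in skin differentiation, had 2.23 and 1.15 RPM in the hearts, against 0.630 RPM (stomach), 11.2 RPM (median) and 16178 RPM (jaw skin; log2 fold -4.52, SE 0.59, adjusted p = 3.08e-04). The value of miR-203-5p in the normal heart is the worth of 1 read there. Jaw skin, cloaca and tongue thus hold nearly all of the summed level of miR-205a and miR-203-5p. With testis and brain as the only other tissues the log2 folds were -1.72 (adjusted p = 0.0425) and -2.43 (0.0101).

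The miR-200 family showed the same kind of contrast with more spread between the hearts. miR-200b-5p had 464.7 RPM in the runt heart and 50.6 RPM in the normal heart, against 108.2 RPM (brain), 6218 RPM (median) and 14646 RPM (stomach). miR-200a-5p had 487.3 and 56.3 RPM, against 79.3 RPM (spleen), 4667 RPM (median) and 20707 RPM (stomach). miR-429-3p, from the same cluster in other vertebrates, had 84.4 and 8.05 RPM, against 7.07 RPM (spleen), 797.2 RPM (median) and 2130 RPM (stomach). The normal heart was below every other tissue for miR-200b-5p and miR-200a-5p, but the runt heart was above brain, spleen and liver in all 3 rows and above testis for miR-429-3p. The log2 folds were -3.58 (SE 0.78, adjusted p = 9.31e-03), -3.31 (SE 0.74, adjusted p = 0.0105) and -3.07 (SE 0.77, adjusted p = 0.0207).

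These 3 calls rest on the normal heart. Without it the log2 folds were -2.08 for miR-200b-5p (adjusted p = 0.339), -1.84 for miR-200a-5p (0.349) and -1.53 for miR-429-3p (0.434). With testis and brain as the only other tissues they were -0.85, -0.40 and -0.31 (adjusted p = 0.490, 0.755 and 0.812), and all 3 calls also ended when rows low in all but 1 library were tested (0.0621, 0.0621 and 0.0804) and with no filter on low values (0.0828, 0.0828 and 0.113). The call of miR-200a-5p ended without the second testis library of a runt (adjusted p = 0.0533). That of miR-429-3p ended without this library (0.0827), without the second testis library of a normal hatchling (0.0722), without tongue (0.0827) and without scaling (0.0559).

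The lowest fold was that of miR-31, which had 29.9 RPM in the runt heart and 8.05 RPM in the normal heart, against 49.3 RPM (liver), 410.2 RPM (median) and 4574 RPM (small intestine). This was the 1 tested row in which both hearts lay below all 13 other libraries, and its log2 fold was -4.93 (SE 0.67, adjusted p = 3.08e-04). With miR-205a and miR-203-5p it was among the 3 of 11 lower rows that passed in every alternative.

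Of 3 rows of the HOX cluster list, miRNAs encoded among the body-axis genes, 1 was lower, beside 3.48% of all tested rows. miR-10c-5p had 24.2 RPM in the runt heart and 2.30 RPM in the normal heart, against 6.99 RPM (brain), 208.1 RPM (median) and 4314 RPM (testis; log2 fold -4.20, SE 0.91, adjusted p = 9.25e-03). Brain, tongue and liver lay below the runt heart. miR-10a-5p (64.9 and 14.9 RPM) and miR-196 (0.950 and 1.15 RPM) did not pass. Of 4 white blood cell rows, miR-155-5p, which is induced in activated lymphocytes and macrophages, was lower, at 33.4 and 3.45 RPM against 17.7 RPM (stomach), 190.8 RPM (median) and 2706 RPM (spleen; log2 fold -4.09, SE 0.93, adjusted p = 0.0119). Stomach and brain (31.8 RPM) lay below the runt heart. In the normal heart 1 read is worth 1.15 RPM, so the values of miR-10c-5p and miR-155-5p there rest on a few reads. Both are at or under the 3.45 RPM that a value of 0 allows. miR-N17 had 9.55 and 5.75 RPM against 9.47 to 967.7 RPM (log2 fold -3.80, SE 0.72, adjusted p = 3.45e-03).

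These calls were lost without the normal heart, for miR-10c-5p at a log2 fold of -2.83 (adjusted p = 0.299), for miR-155-5p at -2.70 (0.339) and for miR-N17 at -3.55 (0.0709). miR-10c-5p and miR-155-5p were also lost when rows low in all but 1 library were tested (0.0621 and 0.0699) or with no filter on low values (0.0809 and 0.0888), and miR-155-5p and miR-N17 with testis and brain as the only other tissues (0.135 and 0.338). miR-34b-5p, of multiciliated and germ cells, had 2.39 RPM in the runt heart and 0 in the normal heart. It was high in testis (451.4 RPM) and brain (428.1 RPM) and between 0.930 and 5.06 RPM in the other 7 tissues. Its call (log2 fold -2.39, SE 0.65, adjusted p = 0.0337) ended in 11 of 21 alternatives, among them no further scaling (0.149). It also ended without the normal heart (0.434), the second testis library of a runt (0.0888), that of a normal hatchling (0.0764), the brain library of the runt (0.0565) and tongue (0.0525). miR-N59 had 0.950 RPM in the runt heart and 1.15 RPM in the normal heart, the worth of 1 read there. Against a median of 11.4 RPM its log2 fold was -1.98 (adjusted p = 0.0133). Its call ended without the normal heart (0.127), the runt heart (0.101), scaling (0.0747) and with testis and brain as the only other tissues (0.812).

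**Figure D3:**
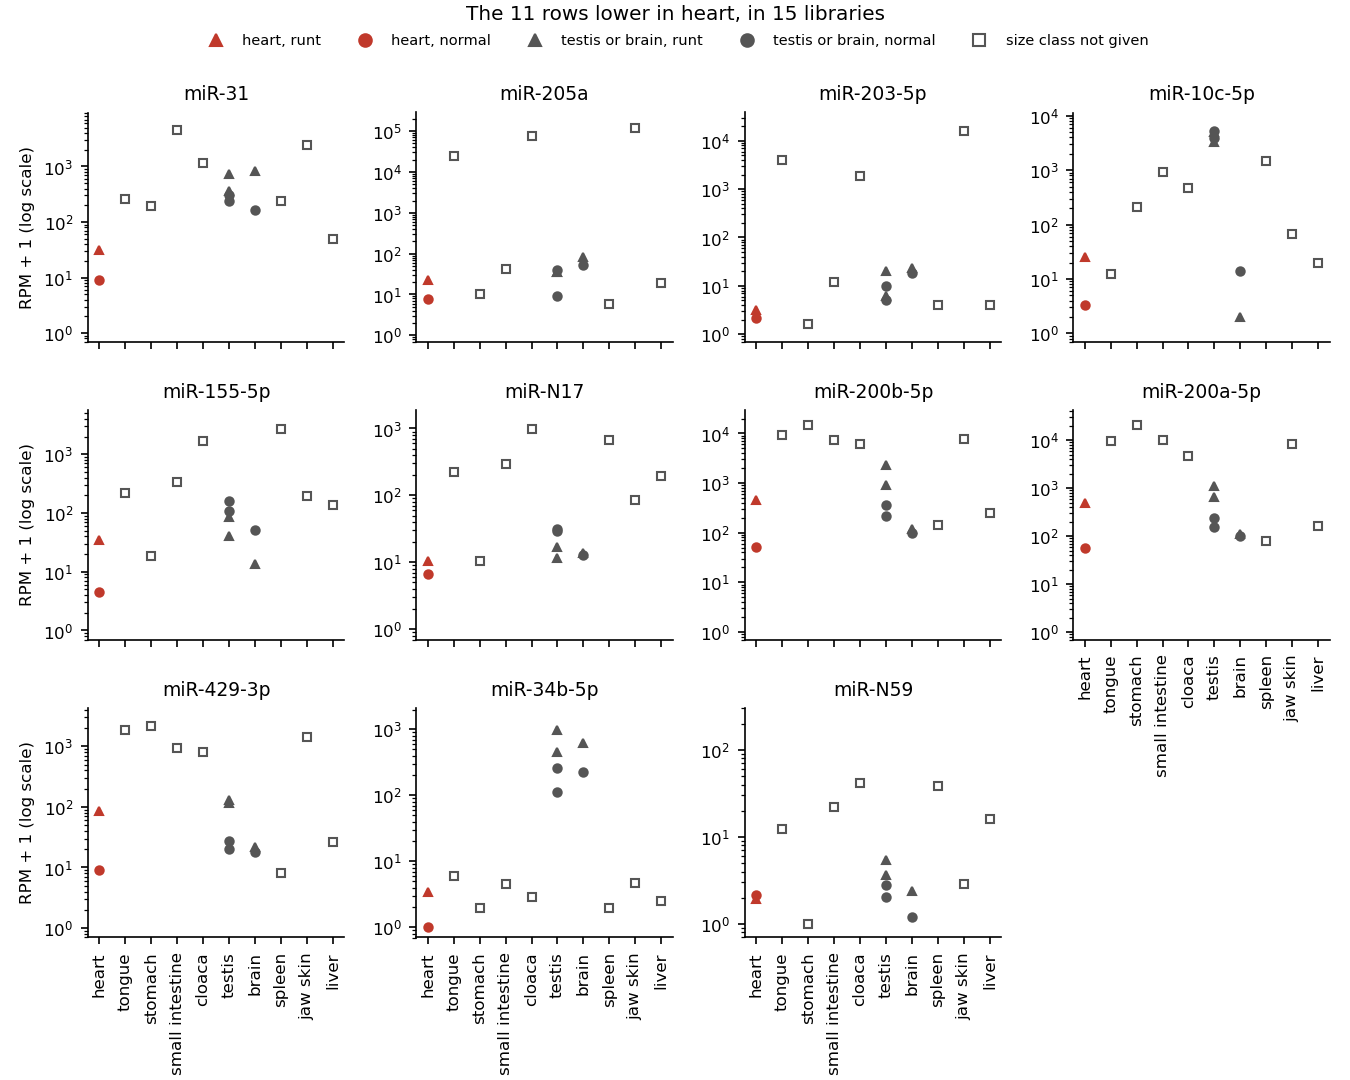
Levels of the 11 rows lower in heart in 15 libraries, as RPM + 1 on log axes, with heart at the left in red and the 9 other tissues in grey. Triangles are runts, circles normal hatchlings and open squares libraries with no size class in the heading. The runt heart lies above the normal heart in 10 of the 11 panels, and only for miR-31 do both heart points lie below all others.

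Lists for other cell types of the organ had 0 rows past the threshold, apart from miR-155-5p of the white blood cell list. Over all tested rows 9.49% passed. The 1 endothelium row, miR-126-5p, had 11283 RPM in the runt heart and 3049 RPM in the normal heart, against 1092 RPM (cloaca), 1861 RPM (median) and 10510 RPM (spleen; log2 fold 1.25, 95% interval -0.35 to 2.84). The runt heart lay above every other tissue and the normal heart below spleen, small intestine and liver. The 4 smooth muscle and mesenchyme rows summed to 26713 and 7047 RPM, against 3482 RPM (lowest), 13042 RPM (median) and 112320 RPM (stomach), with 0 rows passing and a median log2 fold of 0.20. The 4 rows of the miR-23/27/24 clusters, which are known from endothelium and heart of mice, had a median of 0.93 and 0 rows passing. miR-24-3p was at 2826 and 2782 RPM, against 300.4 to 3217 RPM in the other tissues (log2 fold 1.01, 95% interval -0.02 to 2.04). The red blood cell row miR-144-5p had 32.8 and 8.05 RPM, against at most 230.3 RPM in spleen.

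Among the remaining lists a single row passed, miR-34b-5p in the gonad and ciliated cell list (1 of 5 lower, median -0.93). The gut epithelium and endocrine list had the second lowest median, -3.08 over 4 rows, with miR-375 at 23.2 and 9.19 RPM (log2 fold -3.84, adjusted p = 0.0795) and miR-7 at 472.0 and 56.3 RPM (adjusted p = 0.0863). The brain and neuron list had a median of -0.84 over 11 of 14 rows and summed to 2386 and 1218 RPM in the runt and normal heart. The other tissues had 684.4 RPM (lowest), 2064 RPM (median) and 79529 RPM (brain), so the runt heart lay above their median. The cluster of miR-221 and miR-222 had -1.35 over 3 rows, and the let-7 family -0.56 over 9. Over 15 libraries miR-9-5p (b) repeats miR-9-5p at a fixed ratio, as let-7j-5p repeats let-7a-5p. These repeats were kept in the medians, sums and counts of the brain and let-7 lists. The miR-17-92 group (-0.14 over 8 rows), the miR-15/16 family (0.04 over 6), the miR-99/100 and miR-125 family (0.37 over 4), miR-181a-5p (0.01), miR-29b-1-5p (-0.37), miR-210-5p of low oxygen (-0.91) and the liver row miR-122-5p (0.82) had 0 rows past the threshold either. In all, 16 of the 22 lists had no row that passed. Over all tested rows 9.49% passed, and most lists hold few tested rows. A list with 0 or 1 row past the threshold therefore says little.

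**Figure D4:**
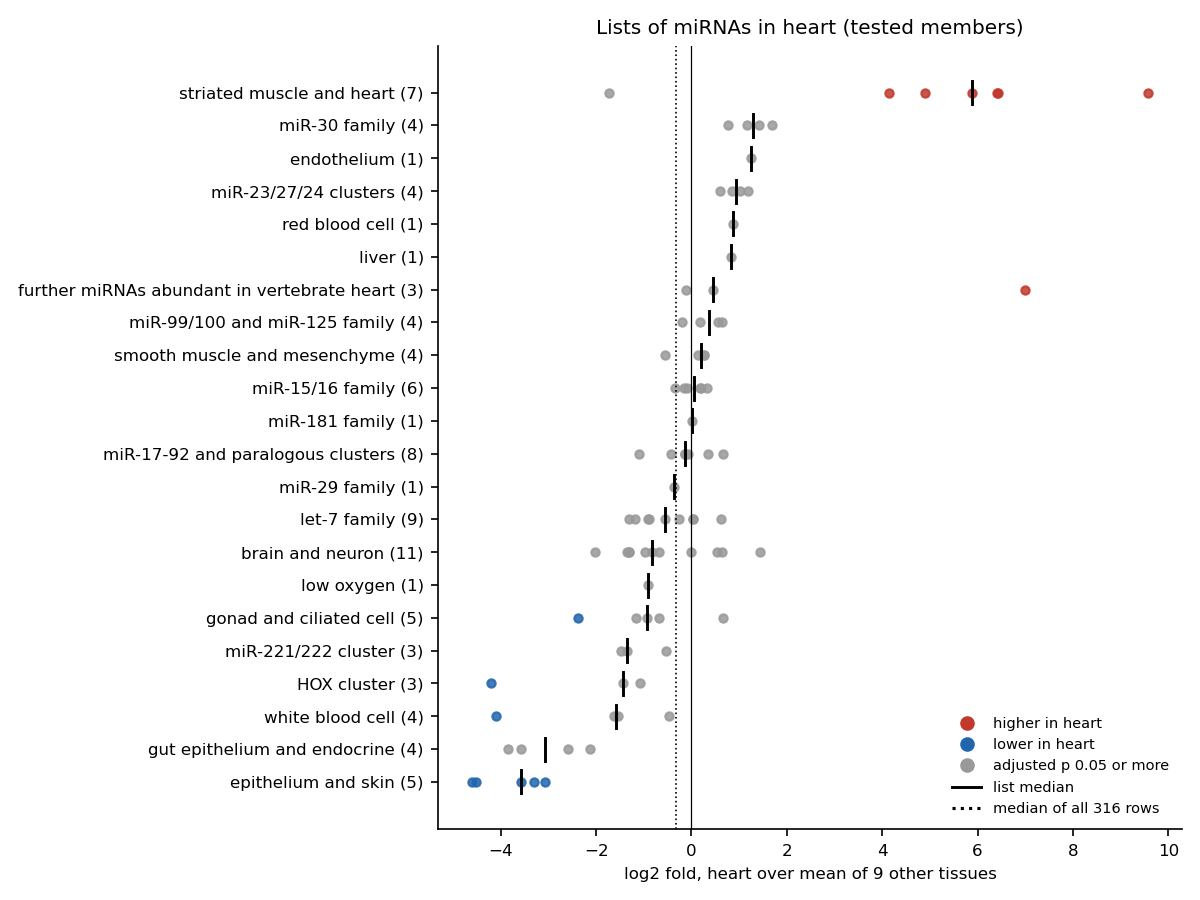
Log2 fold of heart over the mean of the 9 other tissues (horizontal axis) for the tested members of 22 lists, one list per line with its number of tested members. Each point is a miRNA row, red if higher and blue if lower in heart, the short black bar is the list's median and the dotted line the median of all 316 rows. The striated muscle list, drawn with miR-133c-5p, has a median of 5.89 and the epithelium and skin list -3.58.

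Among rows with a mean of at least 1000 RPM over the 10 tissues, the log2 folds nearest 0 were those of miR-181a-5p (0.01), miR-129-5p (-0.01), let-7a-5p and let-7j-5p (0.04 each) and miR-148-5p (0.10). let-7j-5p was at 2.00 times let-7a-5p in all libraries, so the pair is a single measurement. The intervals are wide, from -1.08 to 1.09 for miR-181a-5p and from -1.22 to 1.29 for let-7a-5p, so a 2-fold difference lies within them. miR-129-5p reached that mean through brain. It was at 638.2 RPM in the runt heart and 195.4 RPM in the normal heart, against a median of 224 RPM and 11265 RPM in brain. With testis and brain as the only other tissues its log2 fold was -3.37 (adjusted p = 3.70e-03).

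The 2 hearts differed in several rows, and with 1 library each there is no test of these differences. Of the tested rows 176 lay within 2-fold of each other in scaled level and 44 were more than 4-fold apart. The 176 include 52 rows listed at 0 in both hearts, which say nothing of their agreement in level. The largest ratios were sought among rows with a mean of at least 100 RPM over the 2 hearts. First was miR-454-5p (335.2 RPM in the runt heart and 17.2 RPM in the normal heart). It was followed by miR-458a-5p (295.1 and 21.8 RPM), miR-2184 (1461 and 119.5 RPM), miR-200b-5p and miR-200a-5p. miR-454-5p and miR-2184 were in the runt heart above the highest other tissue (123.5 RPM in spleen and 529.8 RPM in small intestine), and in the normal heart under the median of the other tissues (46.2 and 269 RPM). The runt heart was above the normal heart in 10 of the 11 lower rows and in 5 of the 19 higher rows. Over all 316 tested rows it was above in 142 (44.9%). That share counts the 52 rows at 0 in both hearts as not above, so it is larger among rows with a value in either heart.

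Summed levels, with repeated rows such as miR-133c-5p kept, were higher in the runt heart than in the normal heart for 17 of the 22 lists and lower for 5. Over all tested rows the runt heart was above in 44.9%, with rows at 0 in both hearts counted as not above. The share is larger among rows with a value in either heart, and it counts single rows. List sums follow their most abundant rows, so this share is not a like background for them. Several of the lists hold 1 row only. RPM is a relative measure, so changes of abundant rows such as miR-30a-5p and miR-26a-5p can shift the others, which was not tested. The epithelium and skin list was 8.62-fold higher there than in the normal heart, the gut epithelium and endocrine list 8.89-fold (613.0 and 68.96 RPM), miR-122-5p of liver 8.16-fold (919.6 and 112.6 RPM), the HOX cluster list 4.90-fold and the smooth muscle list 3.79-fold. miR-29b-1-5p had 22.9 RPM in the runt heart and 1.15 RPM in the normal heart, which is the worth of 1 read there, so its ratio of 19.9 rests on that read. The ratio was 4.07 for the red blood cell row, 3.70 for the endothelium row, 2.62 for miR-210-5p, 1.96 for the brain and neuron list, 1.88 for the gonad and ciliated cell list, 1.80 for the white blood cell list and 1.79 for the let-7 family. The striated muscle list, with miR-133c-5p kept, was at 0.964 of the normal heart and the miR-30 family at 0.444. Without miR-133c-5p the striated muscle sum was higher in the runt heart (48516 RPM) than in the normal heart (45501 RPM). miR-202-5p of gonads, miR-137-5p and miR-219a were at 0 in both hearts. The part of these lists in the spread between the hearts was not tested.

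**Figure D5:**
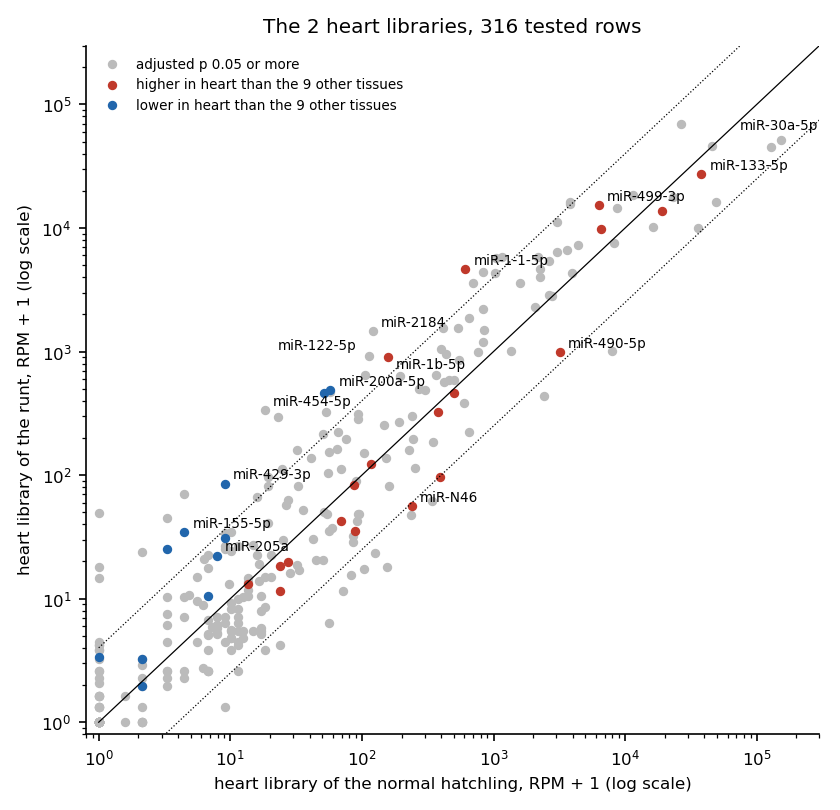
Levels of 316 tested rows in the heart library of the runt (vertical axis) against that of the normal hatchling (horizontal axis), as RPM + 1 on log axes. The solid line marks equal levels and the dotted lines 4-fold differences. Of the 30 rows that differed from the other tissues, the blue lower rows lie mostly above the line and miR-1-1-5p at 4626 and 609.5 RPM far above it.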

How the data were processed

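Small RNA libraries of 10 tissues were compared, heart with 2 libraries. Per the file headers, the authors obtained the deposited RPM values with the quantifying script that comes with miRDeep2 (2_0_0_8). Bowtie 1.2.0, bcl2fastq 2 and bedtools 2.26.0 are listed without a role, per the submitters' processing notes. The genome build and the divisor of the RPM are not given in the sources used here. Although the first line speaks of counts, between 89.1% and 94.2% of low values were whole multiples (within 0.1 reads) of the worth of 1 read. This falls short of whole reads for nearly all values, so no count model was used. Rows listed 55.3% to 81.5% of each library's RPM. A further value column (1) was left out, since its heading fits none of the samples. Sequences were not analysed here.

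Libraries were scaled by an unweighted trimmed mean of log ratios (30% of ratios and 5% of levels trimmed). Rows reaching 10 RPM in 2 or more libraries were fitted by limma 3.58.1 in R 4.3.3 on log2(scaled RPM + 1) with tissue as the only term over 15 libraries (5 residual degrees of freedom), an intensity trend, and heart minus the mean of 9 tissue coefficients as contrast. P-values are two-sided with Benjamini-Hochberg adjustment and a threshold of 0.05. Folds are on this scale, which understates changes of low rows. Values of 0 allow 3 reads, and intervals and floors cover counting error only.

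Named rows were all striated muscle and further heart list rows, the 15 most abundant in heart, the 12 largest called folds in each direction, called rows beyond all other libraries (8 in each direction), the 5 smallest folds of rows over 1000 RPM, the 5 largest ratios between hearts, and called list members. Other rows were named after their values were seen. The comparison and the lists were chosen with earlier results of these data known. Alternatives changed scaling, pseudocount, filter, trend, the libraries and tissues used, weighting and a size class term.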

Additional observations from a re-analysis of the deposited data

Results flagged for a closer look

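Values of the named rows in the 4 testis libraries, which enter the mean of the other tissues, were searched for a library far from the other 3. The first testis library of a runt stood far above the rest for miR-499-3p (79.8 RPM), miR-206 (157.8 RPM) and miR-1-1-5p (218.2 RPM). In the second testis library of a runt, miR-490-5p was at 74.3 RPM. The first testis library of a normal hatchling was the only one with miR-N46 (0.600 RPM), which is the worth of 1 read. A row at 0 in all but 1 testis library is flagged at any value, so this flag carries no weight. The second testis library of a normal hatchling had the lowest miR-205a (8.15 RPM). Chance flags about 1 in 20 groups, and 6 of 50 rows stood out here, miR-N46 included.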

How the results depend on the processing

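When a single heart, testis or brain library was left out, 13 to 20 rows were higher in heart and 4 to 18 lower. Leaving out the heart library of the normal hatchling gave 13 higher and 4 lower rows, and leaving out that of the runt gave 14 and 18, in fits where the lone heart library is assumed to vary like the other tissues. With testis and brain as the only other tissues 29 rows were higher and 97 lower, among them 18 and 5 of those reported. The mean of all other libraries gave 24 higher and 41 lower rows, among them all 19 and 11 reported. No filter on low values gave 25 higher and 7 lower of 649 rows tested. Rows at 10 RPM in 1 library gave 18 and 7 of 419. These filters kept 18 and 17 of the 19 reported higher rows, and 5 each of the 11 lower. The labels give no replicate numbers that pair tissues. With size class as a replicate block, 19 rows were higher and 14 lower, among them all 19 and 11 reported, and no call of a named row was lost. This term is balanced within heart, testis and brain and carries no value for the other tissues. The folds therefore could not change, only their spread, and the kept calls say nothing about size class. Of the 15 higher rows that passed the filter on the other libraries alone 11 passed in every one of 21 alternatives in which they were tested, and of the 11 lower rows 3. The other 4 higher rows were not tested without either heart library, so no stability is read from them. Over 1014 pairs of a named or called row and an alternative, 0 changed direction with a call, 51 lost the call and 3 gained it. These pairs include the 4 rows that passed the filter only through heart, whose direction the filter fixed. They also include repeated rows such as miR-133c-5p, so the tally is not a measure of stability. Keeping the rows with identical values, an alternative chosen after the data were seen, gave 19 and 11. The normal heart has the lower estimated total of reads, and rows of a few RPM there rest on a few reads.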
